A study of Mus musculus with 14 samples.

Results

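The serpin genes of the *Serpina1* and *Serpina3* clusters on mouse chromosome 12, together with their neighbour *Serpina6*, were examined in the livers of indole-treated mice. The 10 genes were *Serpina1a*, *Serpina1b*, *Serpina1c*, *Serpina1d*, *Serpina1e*, *Serpina3k*, *Serpina3m*, *Serpina3n*, *Serpina3g* and *Serpina6*, taken by name from the 55487 genes of the count table. All 10 were among the 12653 genes that passed the filter on low counts. The animals were male TALLYHO/JnG mice, 8 to 12 weeks old, a strain that develops diabetes spontaneously and at a pace that differs between mice. Of the 14 mice, 7 received vehicle (water) and 7 received indole at 20 mg/kg, both by oral gavage 2 times a day for 7 days. The study's protocol then had metabolic tests on days 8 and 10, with 2 more doses on the day between, and the tissue was taken the day after the second test. The question was whether repeated indole alters gene expression in the liver. One polyA library was sequenced from the right liver lobe of each mouse, named G1 to G14, and the libraries held 15197498 to 21060376 counted reads. No deletion or transgene was involved, and whether the mice shared cages or litters was not given.

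Serpins of this clade are secreted mainly by hepatocytes. An inhibitory serpin presents an exposed loop as bait, and the protease that cuts the loop is trapped in a covalent complex. Human α1-antitrypsin, the main plasma inhibitor of neutrophil elastase, is produced from a single gene. The *Serpina1* genes are its counterparts in mice, a row of near-identical copies that differ in the loop. Which proteases each copy inhibits was not examined. The *Serpina3* genes are related to human α1-antichymotrypsin and differ more from each other than the *Serpina1* copies do. *Serpina6* encodes corticosteroid-binding globulin, a serpin that carries glucocorticoids in plasma and does not inhibit proteases.

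The genes lay on GRCm38 chromosome 12, with *Serpina6* and the *Serpina1* copies on the minus strand and the *Serpina3* genes on the plus strand. *Serpina6* occupied chr12:103646630-103657212, *Serpina1b* chr12:103728156-103830373, *Serpina1d* chr12:103763594-103773592, *Serpina1a* chr12:103853589-103863562, *Serpina1c* chr12:103894926-103904887 and *Serpina1e* chr12:103946931-103958975. On the other strand *Serpina3g* occupied chr12:104236245-104241939, *Serpina3k* chr12:104338486-104346144, *Serpina3m* chr12:104338486-104394257 and *Serpina3n* chr12:104406729-104414329. The annotated span of *Serpina1b* enclosed *Serpina1d*, without a shared exon. *Serpina3m* began at the first base of *Serpina3k* and shared 60 exonic bases with it, 2.92% of the exonic bases of *Serpina3k*. The coding sequences of the *Serpina1* copies were 96.3% to 98.5% identical in pairs, with *Serpina1a* and *Serpina1c* the closest. The *Serpina3* members were 80.6% to 91.7% identical, with *Serpina3k* and *Serpina3m* the closest.

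Only uniquely mapped reads were counted, so sequence that the copies share bears on every *Serpina1* value below. Among all 150-base windows of its transcripts, *Serpina1c* shared 50.5% exactly with another gene, *Serpina1a* 35.1%, *Serpina1d* 23.3%, *Serpina1b* 11.9% and *Serpina1e* 7.36%. *Serpina3k* shared 0.262% and *Serpina3m* 0.331%, in both cases with each other, and *Serpina3n*, *Serpina3g* and *Serpina6* shared none. The windows held by no other gene numbered 600 in *Serpina1c*, 955 in *Serpina1d*, 1133 in *Serpina1a*, 1360 in *Serpina1e* and 1958 in *Serpina1b*, so the counts of *Serpina1c* rest on the least sequence. The reads of TALLYHO mice were aligned to the C57BL/6J reference, and the effect of strain differences on the counts was not tested.

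The coding bases that tell the *Serpina1* copies apart were compared in an alignment of the 5 coding sequences. Of its 1242 columns without a gap, 86 were not the same in all copies (6.92%). The gap-free 60-base stretch within 1 exon that had the most such columns lay in the last exon (exon 6 of the *Serpina1a* transcript, exon 5 of the others), in the region that encodes the protease-binding loop, and held 18 of them, with the other 68 elsewhere. It is shown because it is the stretch of that length that best separates the copies whose levels are given below, and the bases that differ between copies are in capitals (GENCODE annotation, GRCm38, minus strand, 5′ to 3′).
Serpina1a, chr12:103853757-103853816: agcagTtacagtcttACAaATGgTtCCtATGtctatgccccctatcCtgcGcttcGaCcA
Serpina1b, chr12:103728324-103728383: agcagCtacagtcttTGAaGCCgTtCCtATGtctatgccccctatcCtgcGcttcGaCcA
Serpina1c, chr12:103895094-103895153: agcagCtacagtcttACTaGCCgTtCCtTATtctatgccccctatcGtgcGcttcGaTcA
Serpina1d, chr12:103763762-103763821: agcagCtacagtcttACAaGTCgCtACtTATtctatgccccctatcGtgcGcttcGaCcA
Serpina1e, chr12:103947100-103947159: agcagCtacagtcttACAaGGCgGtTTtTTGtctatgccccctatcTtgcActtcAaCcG

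The promoters were read from RefSeq (GRCm38.p6) as windows from 250 bases before to 50 bases after the start site, and 7 of the 10 genes matched an entry (*Serpina1a* to *Serpina1e*, *Serpina3g* and *Serpina3n*). All 5 *Serpina1* windows held an identical run of 59 bases that included GTTAAT, a half-site of the hepatocyte factor HNF1. That half-site, searched on both strands, occurred in 7.10% of the 32851 RefSeq promoter windows. The run began 60 bases before the start site in *Serpina1a*, 65 in *Serpina1b*, 66 in *Serpina1c*, 55 in *Serpina1d* and 117 in *Serpina1e*, so the same letters lay farther from the annotated start in *Serpina1e*. A C/EBP motif (TTGCNNAA, both strands, 10.8% of all windows) occurred in *Serpina1a*, *Serpina1b*, *Serpina1d* and *Serpina1e*. Relative to the start site it began at −161 in *Serpina1b*, −149 in *Serpina1d* and −211 in *Serpina1e*. In *Serpina1a* it began at 24, after the start site. A STAT motif (TTCNNNGAA, 8.30% of all windows) had 1 match, in *Serpina3g*, and none in *Serpina3n*. The letters GAAANNGAA (IRF, both strands, 8.56%) and TATAAA (forward strand, 8.32%) were in none of the 7 windows, and no match overlapped another. The levels of *Serpina1c* and *Serpina1e* correlated by Pearson *r*, though not in every check given below, and *Serpina1e* spread far more between mice. The 150 bases before the start site are printed for these genes and for *Serpina3g*, with matches in capitals.
Serpina1c, chr12:103904951-103905100, minus strand: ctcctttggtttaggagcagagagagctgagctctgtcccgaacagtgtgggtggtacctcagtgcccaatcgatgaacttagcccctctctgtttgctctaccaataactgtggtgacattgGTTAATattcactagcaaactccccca
Serpina1e, chr12:103956898-103957047, minus strand: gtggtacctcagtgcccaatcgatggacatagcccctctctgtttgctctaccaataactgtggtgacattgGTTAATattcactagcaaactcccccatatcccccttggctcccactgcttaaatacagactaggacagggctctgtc
Serpina3g, chr12:104235997-104236146, plus strand: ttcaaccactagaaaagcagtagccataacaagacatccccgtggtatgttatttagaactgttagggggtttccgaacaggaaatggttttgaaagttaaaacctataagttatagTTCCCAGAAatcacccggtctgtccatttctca

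The tissue label was checked first. The 8 hepatocyte markers summed to 87180 to 126188 CPM (counts scaled to library size and corrected by TMM) in the 14 mice, whereas the summed level of the 10 neutrophil markers did not exceed 2.71 CPM, with *Ly6g* and *Camp* at 0 in every library, and that of the 8 pancreatic acinar markers did not exceed 0.103 CPM. One library stood apart in its immune genes. The indole-treated mouse G8, which also had the lowest total count, had a summed level of 5001 CPM for the 15 interferon-γ response genes (next highest mouse 2500 CPM), 536 CPM for the 12 macrophage markers (next 290) and 9.02 CPM for the 10 T and NK cell markers (next 3.57). Erythroid genes differed between the groups, with 5 of 5 tested higher after indole at an unadjusted edgeR *p* below 0.05, a threshold passed by 3.81% of all genes, but only *Hbb-bs* and *Alas2* below 0.05 in the exact permutation test. Their summed level was 204 to 384 CPM in vehicle-treated and 263 to 1092 CPM in indole-treated mice. The 3 highest were G5 (1092), G14 (1046) and G12 (596 CPM), and G3, G7 and G8 lay within the vehicle range. Of the 8 hepatocyte markers, *Ttr* was higher at that threshold (log2 fold change 0.24). In direction alone, 2 of the 8 were higher and 6 lower after indole, with a median log2 fold change of −0.017. The marker lists were chosen with earlier results of these data known, so these counts describe the lists. In libraries of whole liver, fewer cells of a type and less RNA per cell cannot be told apart.

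The 10 genes together supplied 1.93% to 2.93% of all counted reads in a mouse. Per kilobase of gene length, *Serpina3k* had the highest mean (mean±SD over 14 mice, 3060±975 CPM per kb), but it exceeded the next gene, *Serpina1c*, in only 9 of 14 mice. *Serpina1c* (2819±404), *Serpina1b* (2674±307) and *Serpina1d* (2433±285) followed, and the ranges of mean±SD of neighbours among these 4 overlapped, although *Serpina1c* exceeded *Serpina1b* in 9 and *Serpina1b* exceeded *Serpina1d* in 13 of 14 mice. *Serpina1a* came next at 1219±152 CPM per kb and was below *Serpina1d* in 14 of 14 mice. *Serpina1e* (455±376), *Serpina6* (346±72.3), *Serpina3m* (255±42.6) and *Serpina3n* (213±60.04) formed a lower tier in which the ranges of mean±SD of neighbours also overlapped, although *Serpina1e* exceeded *Serpina6* in 8, *Serpina6* exceeded *Serpina3m* in 13 and *Serpina3m* exceeded *Serpina3n* in 12 of 14 mice. *Serpina3g* was listed at 0.999±0.804 CPM per kb, the lowest of the 10 in every mouse. Only uniquely mapped reads were counted, and the order at the top was different when counts were scaled by unshared sequence. That scale pools the 150-base windows of all annotated transcripts, 2222 in *Serpina1b* and 1212 in *Serpina1c*. Which of these transcripts the mice expressed was not tested. Per 1000 windows of 150 bases that no other gene holds, *Serpina1c* was highest (6394±917 CPM) and exceeded the next gene, *Serpina1d* (3551±416 CPM), in 14 of 14 mice, with *Serpina3k* at 3307±1054 CPM and *Serpina1b* at 3298±379 CPM.

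**Figure D1:**
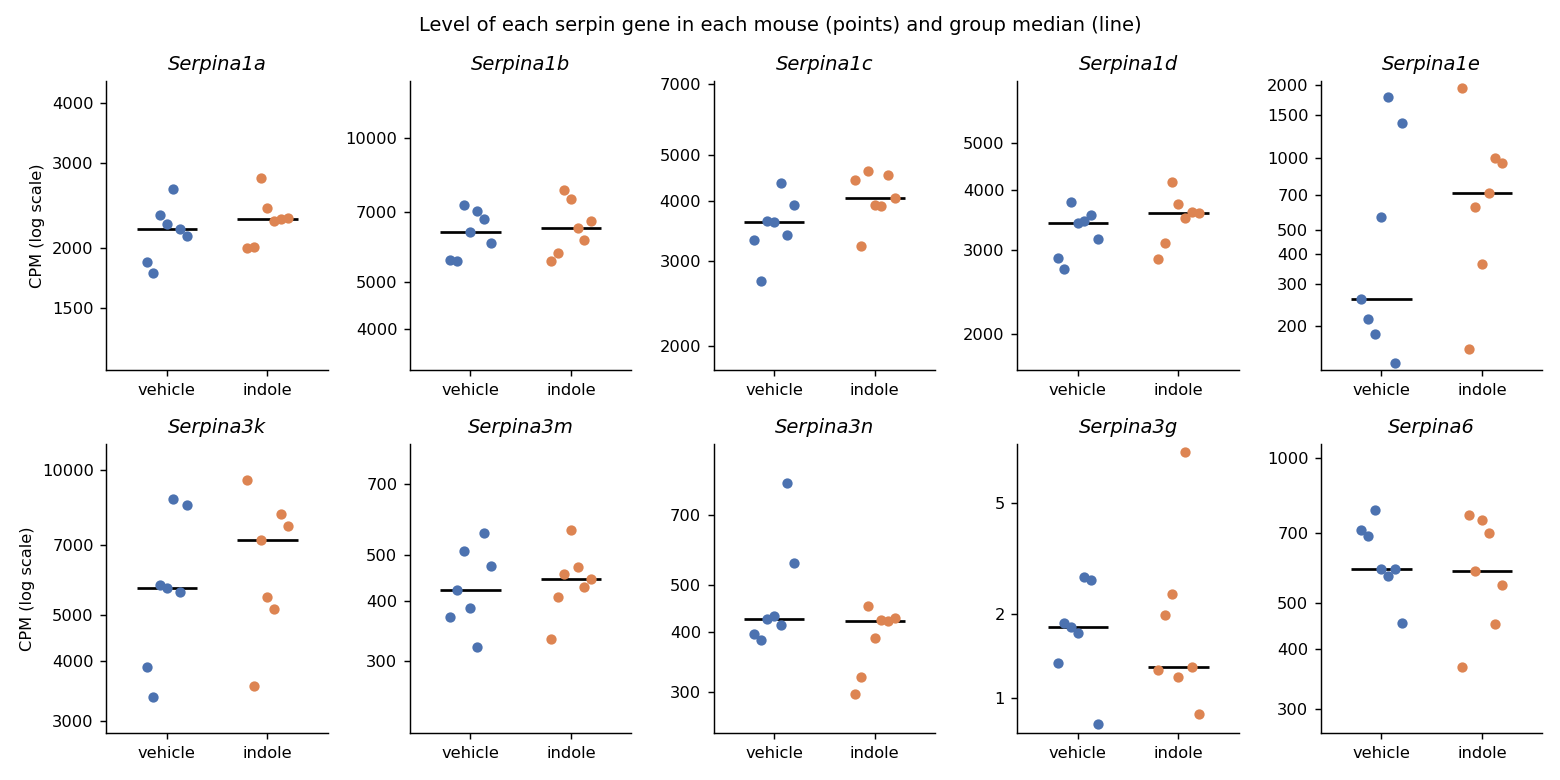
Level of each of the 10 serpin genes in CPM (vertical axis, log scale, separate for each gene) in the 7 vehicle-treated and 7 indole-treated mice; points are mice and lines are group medians. The points of the groups overlap in every panel, *Serpina1e* spans 140 to 1945 CPM, and a single indole-treated mouse lies at 7.60 CPM for *Serpina3g*.

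The *Serpina1* copies other than *Serpina1e* varied little between mice. *Serpina1b*, the copy with the most reads, was lowest at 5532, median 6353 and highest at 7246 CPM in the vehicle group, and 5547, 6498 and 7793 CPM in the indole group. The groups covered almost the same range, with means of 6363±685 and 6551±838 CPM (mean±SD, *n*=7 per group). *Serpina1a* ran from 1769 through a median of 2188 to 2653 CPM in vehicle-treated mice and from 1998 through 2298 to 2794 CPM in indole-treated mice. *Serpina1d* ran from 2733 through 3407 to 3777 CPM and from 2866 through 3574 to 4154 CPM, respectively. In all 4 of these copies, *Serpina1c* included, the vehicle-treated mouse G4 was the lowest and the indole-treated mouse G5 the highest of the 14. Between those extremes the levels differed 1.41-fold in *Serpina1b*, 1.52-fold in *Serpina1d*, 1.58-fold in *Serpina1a* and 1.70-fold in *Serpina1c*.

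*Serpina1c* was the copy with the smallest *p* between the groups. Its lowest, median and highest levels were 2732, 3625 and 4358 CPM in the vehicle group and 3226, 4061 and 4631 CPM in the indole group. Of the indole-treated mice, 6 of 7 lay above the vehicle median, but the ranges overlapped over most of their length. The means were 3572±507 and 4101±485 CPM (7 mice each), and the log2 fold change was 0.20 (SE 0.0985).

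*Serpina1e* behaved unlike the other copies. Its level was lowest at 140 (G11), median 258 and highest at 1796 CPM (G10) in the vehicle group, and 161 (G3), 715 and 1945 CPM (G2) in the indole group. The lowest and highest mice thus differed 13.8-fold, and the coefficient of variation was 103% in vehicle-treated and 70.4% in indole-treated mice, against a median over the 12653 genes of 15.2% and 16.9%. The dispersion that edgeR fitted for *Serpina1e* was higher than that of 99.7% of the genes tested. High and low mice occurred in both groups. Vehicle-treated G10 and G13 (1395 CPM) and indole-treated G2 were the highest, and vehicle-treated G11, G6 (186 CPM) and G4 (213 CPM) and indole-treated G3 were the lowest. At these levels the counts ran from 2537 to 37019 reads, so counting error was small against the differences between mice.

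The share of each copy in the summed *Serpina1* counts followed from this. *Serpina1b* took 38.9±2.91% of the reads (mean±SD, 14 mice), *Serpina1c* 23.0±1.59%, *Serpina1d* 20.4±1.47%, *Serpina1a* 13.4±0.565% and *Serpina1e* 4.27±3.40%. *Serpina1e* ranged from 0.876% in G11 to 11.6% in G2. In G2 the shares of *Serpina1a*, *Serpina1b* and *Serpina1d* were the lowest of the 14 mice, at 11.9%, 33.1% and 17.1%, while that of *Serpina1c* was the highest, at 26.4%. The sum of all copies was steadier than *Serpina1e*, at 12980 to 19288 CPM in the vehicle group and 14253 to 19995 CPM in the indole group, with means of 16033±2085 and 17277±1707 CPM. The shares depend on how length is handled. Per kilobase of gene length *Serpina1c* (29.3%) exceeded *Serpina1b* (28.0%), and per 150-base window that no other gene holds *Serpina1c* took 40.5% and *Serpina1b* 21.04%, whereas *Serpina1e* remained the smallest, at 4.56% and 3.30%.

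**Figure D2:**
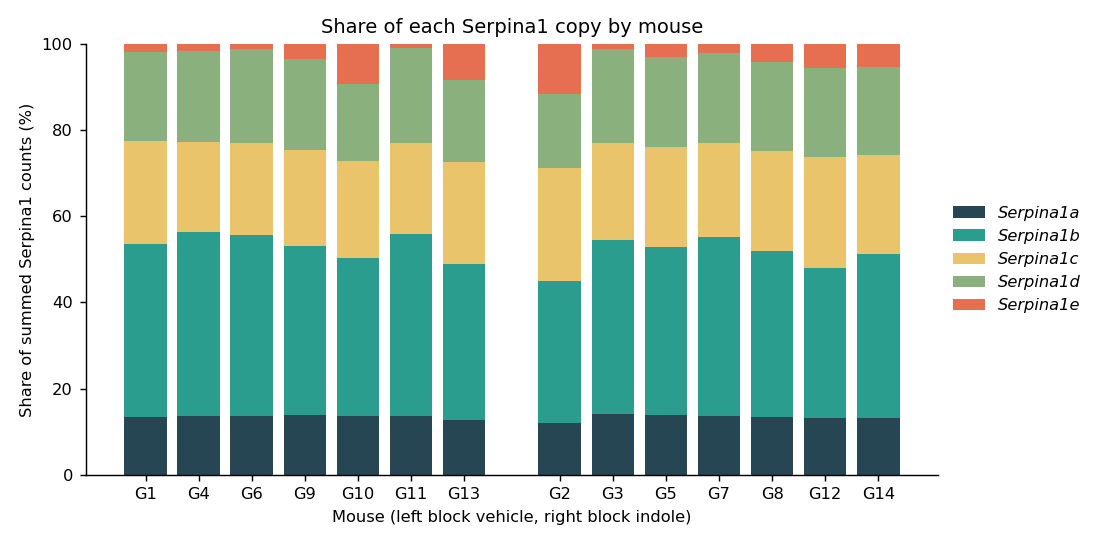
Share of each *Serpina1* copy in the summed *Serpina1* counts (vertical axis, %), one bar per mouse, with the 7 vehicle-treated mice on the left and the 7 indole-treated mice on the right. The top segment, *Serpina1e*, runs from 0.876% in G11 to 11.6% in G2, and wide and narrow top segments occur on both sides.

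Among the *Serpina3* genes, *Serpina3k* took 86.8±4.15% of the reads (mean±SD, 14 mice). *Serpina3k* encodes a kallikrein-binding serpin. Its lowest, median and highest levels were 3372, 5690 and 8719 CPM in the vehicle group and 3548, 7161 and 9561 CPM in the indole group. The level differed 2.84-fold between the lowest mouse (G4) and the highest (G2), and the group means of 5925±2049 and 6662±2050 CPM were closer together than their SDs. *Serpina3m*, which begins at the same base as *Serpina3k*, was far steadier. It ran from 321 through 423 to 554 CPM in vehicle-treated mice and from 334 through 445 to 564 CPM in indole-treated mice, and the groups covered nearly the same range.

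*Serpina3n*, an acute-phase antiprotease of the mouse, was lowest at 385, median 425 and highest at 817 CPM in the vehicle group and 297, 422 and 453 CPM in the indole group. The group medians were close, and what separated the means (489±155 and 390±58.8 CPM, *n*=7 per group) was carried by the vehicle-treated mice G11 (817 CPM) and G13 (556 CPM), both above all indole-treated mice, and the indole-treated mice G2 (297 CPM) and G3 (322 CPM), both below all vehicle-treated mice. The log2 fold change was −0.32 with an SE of 0.159, and −0.15 without G11.

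*Serpina3g*, an intracellular serpin of immune cells that inhibits cathepsins, was near the limit of the libraries, at 15 to 113 reads per mouse. It ran from 0.805 through 1.80 to 2.71 CPM in the vehicle group and from 0.879 through 1.297 to 7.60 CPM in the indole group. The highest value was that of G8, the mouse with the high interferon-γ, macrophage and T and NK cell levels, and the next highest indole-treated mouse, G5, was at 2.36 CPM. The indole mean exceeded the vehicle mean (2.37±2.36 and 1.84±0.679 CPM), whereas the indole median was below the vehicle median. The log2 fold change was 0.35 with G8 and −0.29 without it. The neighbouring gene *Serpina3f* was also highest in G8, at 11.6 CPM, where its group means were 1.91±0.892 and 2.72±3.91 CPM. The part of the immune genes in these values was not tested.

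*Serpina6* was lowest at 453, median 587 and highest at 782 CPM in the vehicle group and 367, 583 and 762 CPM in the indole group. The groups shared almost their whole range, with means of 624.9±109 and 593±151 CPM. Its lowest mouse was G2, the mouse with the highest *Serpina1e* and *Serpina3k*.

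In the comparison of indole with vehicle, 0 of the 10 genes had an unadjusted *p* below 0.05 in the edgeR quasi-likelihood test, against 3.81% of the 12653 genes tested (482 genes). After Benjamini–Hochberg adjustment 0 of the 12653 genes (0%) had a *p* below 0.05 in edgeR, and the adjusted *p* of each of the 10 was 0.998. DESeq2 also made 0 adjusted calls, with 719 genes at an unadjusted *p* below 0.05. In 0 of the 10 genes were the levels of the groups free of overlap, which held for 0.0474% of all genes tested (6 genes). Of the 10 genes, 8 had a higher and 2 a lower mean after indole, and their median log2 fold change was 0.09, against 6489 higher and 6164 lower among all genes and a median of 0.0042. These counts and medians describe the genes and were not tested as a set.

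The log2 fold changes of the *Serpina1* copies, indole against vehicle, were 0.08 for *Serpina1a* (95% CI −0.11 to 0.28), 0.04 for *Serpina1b* (−0.15 to 0.23), 0.20 for *Serpina1c* (−0.0061 to 0.40), 0.10 for *Serpina1d* (−0.094 to 0.28) and 0.34 for *Serpina1e* (−1.16 to 1.84). Those of the others were 0.17 for *Serpina3k* (−0.37 to 0.71), 0.03 for *Serpina3m* (−0.22 to 0.28), −0.32 for *Serpina3n* (−0.66 to 0.012), 0.35 for *Serpina3g* (−0.58 to 1.28) and −0.08 for *Serpina6* (−0.40 to 0.25). For *Serpina1a*, *Serpina1b* and *Serpina1d* the upper bounds were 1.22-fold, 1.17-fold and 1.22-fold higher, while for *Serpina1e* the interval ran from 0.447-fold to 3.57-fold.

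*Serpina1c* and *Serpina3n* were nearest to the threshold, with unadjusted edgeR *p* values of 0.057 and 0.057. The exact two-sided permutation test of the mean log2 CPM over 3432 relabellings gave *p*=0.0717 for *Serpina1c* and *p*=0.118 for *Serpina3n*, and 0.315 or more for the other 8 genes, in a design whose smallest possible value is 0.000583. Both crossed the unadjusted threshold under some settings. DESeq2 gave 0.046 for *Serpina1c* and 0.039 for *Serpina3n*. *Serpina1c* fell below the threshold without G3 (0.015), G10 (0.018) or G13 (0.042), and *Serpina3n* without G1 (0.040), G4 (0.036), G5 (0.0496) or G10 (0.048), while their adjusted values did not pass in any of these fits.

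**Figure D3:**
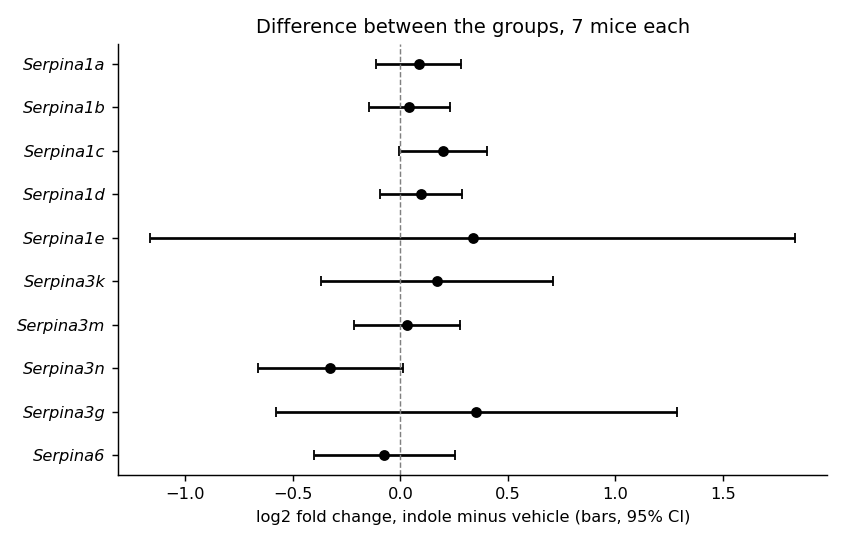
Log2 fold change of each serpin gene in indole-treated relative to vehicle-treated mice (horizontal axis; points, edgeR estimate; bars, 95% CI; 7 mice per group). All 10 intervals include 0, that of *Serpina1e* is the widest (−1.16 to 1.84), and those of *Serpina1c* and *Serpina3n* end nearest to 0.

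Several of the genes varied together between mice. Correlations were computed for all 45 pairs on log2 CPM centred on the group means, over 14 mice, with permutation within groups and adjustment over the 45 pairs. With this test 9 pairs passed an adjusted *p* of 0.05 by Pearson *r*, and 7 of these also did so by Spearman rho.

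The first set consisted of *Serpina1a*, *Serpina1b* and *Serpina1d*. *Serpina1b* and *Serpina1d* had *r*=0.94 (rho=0.94, adjusted permutation *p*=0.000225 for both). *Serpina1a* correlated with *Serpina1b* at *r*=0.90 and with *Serpina1d* at *r*=0.89 (adjusted permutation *p*=0.000225 and 0.0018). These 3 pairs also passed without the 2 mice farthest from the median of the first gene (*r*=0.91, 0.93 and 0.95). The 3 genes share sequence, and the part of shared reads in their correlation was not tested. In all 3, vehicle-treated G1 and G4 and indole-treated G2 and G3 were lower than every other mouse. The same mice had the lowest summed hepatocyte markers (87180 to 98904 CPM, next 111133 CPM in G8). Their TMM factors were the highest (1.07 to 1.08, next 1.0039 in G13). Both groups held such mice, so centring on the group means or leaving out 2 mice did not remove this difference. Its part in the correlations was not tested.

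The second set consisted of *Serpina1c*, *Serpina1e* and *Serpina3k*. *Serpina1c* and *Serpina3k* had *r*=0.92 (rho=0.91, adjusted permutation *p*=0.00105 and 0.0009), and *r*=0.84 without the 2 mice farthest from the median (G3 and G4). In both genes G1, G3 and G4, which stood apart above in hepatocyte markers and TMM factors, were lower than every other mouse. In *Serpina3k* they lay at 3372 to 3886 CPM (next 5143 CPM in G8), whereas G2, the other such mouse, was the highest. Leaving out G3 and G4 kept G1, and the part of this difference in the correlation was not tested. *Serpina1e* and *Serpina3k* had *r*=0.83 (rho=0.83, adjusted permutation *p*=0.0066 and 0.0051). *Serpina3k* shared no 150-base window with any *Serpina1* copy. Within groups the *Serpina1e* and *Serpina3k* correlation was 0.76 in vehicle-treated and 0.93 in indole-treated mice. Without G3 and G10 it was 0.73 and no longer passed (adjusted permutation *p*=0.0733), so it rested in part on those mice. *Serpina1c* and *Serpina1e* had *r*=0.76 (adjusted permutation *p*=0.0132) but did not pass by rho (0.70, adjusted *p*=0.058) or without G3 and G4 (*r*=0.73, adjusted *p*=0.0768), nor without G3 alone (*r*=0.68) or G10 alone (*r*=0.69).

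*Serpina6* was low where *Serpina1e* and *Serpina3k* were high. Its correlation was −0.76 with *Serpina1e* (rho=−0.82, adjusted permutation *p*=0.0072 and 0.0016) and −0.79 with *Serpina3k* (rho=−0.82, adjusted permutation *p*=0.0072 and 0.0051). Both passed without the 2 farthest mice, at *r*=−0.78 without G3 and G10 and −0.80 without G3 and G4, and both passed without G2, at *r*=−0.72 and −0.77 (adjusted permutation *p*=0.0286 and 0.0211). *Serpina1c* and *Serpina6* had *r*=−0.60, which did not pass by *r* or rho (adjusted permutation *p*=0.102 and 0.0882). The sign was the same within groups, at −0.72 and −0.69 in vehicle-treated and −0.87 and −0.90 in indole-treated mice. G2 lay at the end of both relations, and its *Alb* level, 47406 CPM, was the lowest of the 14 mice. The part of that low level in the correlations was not tested.

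**Figure D4:**
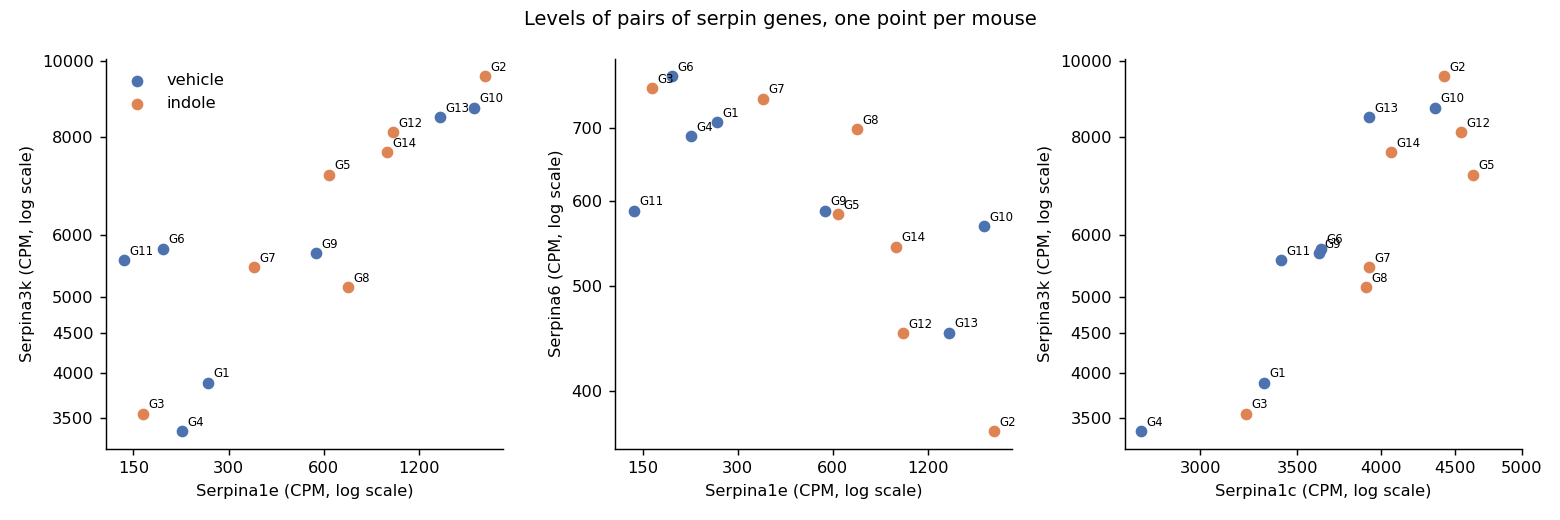
Levels of *Serpina1e* and *Serpina3k*, *Serpina1e* and *Serpina6*, and *Serpina1c* and *Serpina3k* (CPM, log axes), one labelled point per mouse, coloured by group. The first and last panels rise (*r*=0.83 and 0.92 after centring on the group means) and the middle one falls (*r*=−0.76), with mice of both groups along the whole length of each.

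The remaining pairs showed where the clusters did not move as units. *Serpina1a* and *Serpina1c*, the most alike in sequence, had *r*=0.72 (adjusted permutation *p*=0.0327), which was 0.49 without G4 and G10 and then did not pass (adjusted *p*=0.362), so it rested on those mice. *Serpina1e* had *r*=−0.03 with *Serpina1b* and −0.04 with *Serpina1d*. *Serpina3k* and *Serpina3m*, which begin at the same base, had *r*=−0.20. *Serpina3m* and *Serpina3n* had *r*=0.67, which did not pass after adjustment (permutation *p*=0.0569), and 0 of the 6 pairs within the *Serpina3* cluster passed.

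**Figure D5:**
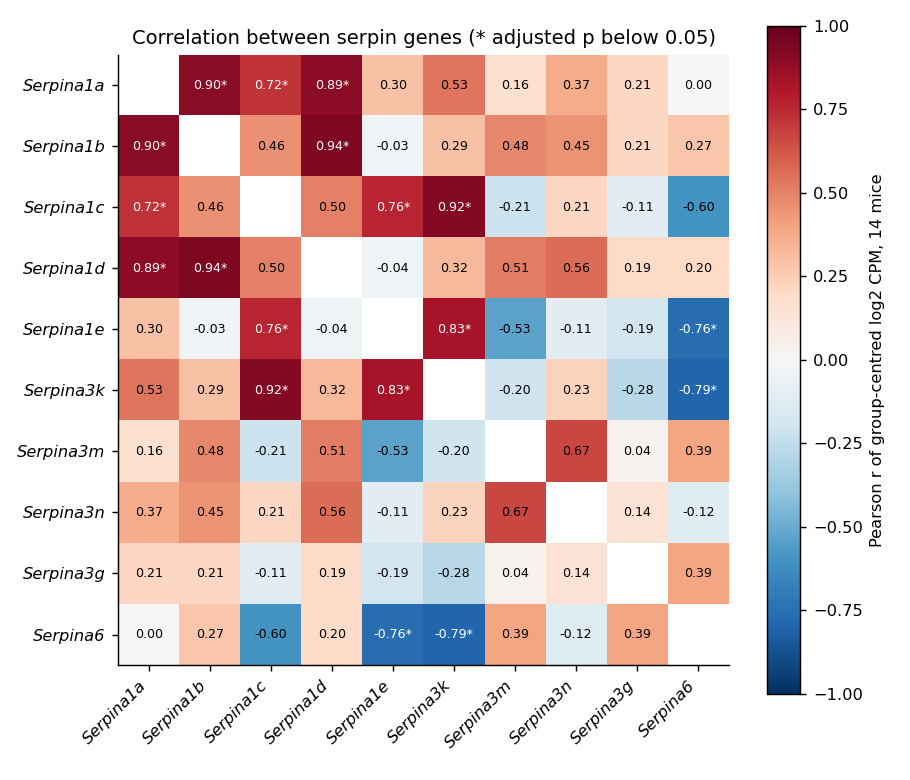
Pearson *r* between the 10 serpin genes on group-centred log2 CPM over 14 mice (colour and printed value, from −1 to 1); asterisks mark pairs with an adjusted permutation *p* below 0.05. *Serpina1a*, *Serpina1b* and *Serpina1d* form one block of high values (0.89 to 0.94), and *Serpina1c*, *Serpina1e* and *Serpina3k* another (0.76 to 0.92). *Serpina6* is negative with *Serpina1e* and *Serpina3k* (−0.76 and −0.79, both marked) and with *Serpina1c* (−0.60, not marked).

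The genes most alike to each serpin across mice were taken as those with the highest *r* among the 12643 other genes tested, as a description with no test. *Serpina1e* was most like *Ces3a*, a carboxylesterase (*r*=0.94), and *C8b*, a subunit of complement component C8 (0.94). *Serpina3k* was most like *Scp2*, the sterol carrier protein (0.97), and *Cyp2d9* (0.94), and *Serpina1c* was most like the pseudogene *Scp2-ps2* (0.93) and *Scp2* (0.92). *Serpina3n* was most like *Itih3* (0.98) and *Itih4* (0.94), which encode inter-α-trypsin inhibitor heavy chains. Each of these was 0.87 or more without the 2 mice farthest from the median, in mice that had also served to pick the genes.

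*Serpina1b* was most like *Apoe* (*r*=0.98) and *Tmem242* (0.95), *Serpina1a* like *Slc25a39* (0.98) and *Cycs* (0.96), and *Serpina1d* like *Mettl7b* (0.97) and *Tpi1* (0.96). *Serpina3m* was most like *Rnd2* (0.91) and *S1pr1* (0.90). *Serpina6* was most like *Slco1a4*, an organic anion transporter (0.88), and *Mrgprb11-ps* (0.88), the latter a pseudogene at 0.237 to 1.21 CPM. *Serpina3g* was most like *H2-D1*, an MHC class I gene (0.93), and *Tmsb10* (0.93), values that were 0.87 and 0.79 without the 2 farthest mice, G8 and G13.

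Other genes of the pathway were read from the same test, in which 3.81% of all genes had an unadjusted *p* below 0.05. A single call among the 10 to 20 genes of a list is near that share. Of the 16 other clade A serpins, 5 were tested and 0 had an unadjusted *p* below 0.05. *Serpina10*, the protein Z-dependent protease inhibitor, was the most abundant, at 241±33.9 CPM in vehicle-treated and 241±46.6 CPM in indole-treated mice. Of 12 other serpins tested, 1 was lower at that threshold (*Serpinb6b*, log2 fold change −0.59, unadjusted edgeR *p*=0.022, exact permutation *p*=0.0728) and the most abundant, *Serpinc1* (antithrombin), had a log2 fold change of 0.05. Of 10 proteases tested, 1 was higher (*Cela1*, a pancreatic-type elastase, 0.30, unadjusted edgeR *p*=0.025, exact permutation *p*=0.0600). *Elane*, which encodes the main target of human α1-antitrypsin, had 3 reads over the 7 vehicle-treated mice and 0 over the 7 indole-treated mice. The most abundant protease gene was *Plg*, with a log2 fold change of −0.07.

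Of 20 genes that fold and export secreted proteins, 1 was higher (*Sec23b*, a coat protein of vesicles leaving the endoplasmic reticulum, 0.28, unadjusted edgeR *p*=0.038, exact permutation *p*=0.0711), and *Calr*, the most abundant, was at 0.05. A further list covered the interleukin-6 and STAT3 chain, the route that drives acute-phase serpins. It also held genes that are not components of that chain, among them the interleukin-1 receptor gene *Il1r1* and the immediate early gene *Junb*. Of its 14 genes tested, 5 were lower and 0 higher at an unadjusted *p* below 0.05, against 3.81% of all genes. The median of the 14 log2 fold changes was −0.08. The list was chosen with earlier results of these data known, so this count describes the list and is not an independent result. The 5 were *Junb* (−0.72), *Socs3*, a feedback inhibitor of the chain (−1.25), *Stat3* (−0.32), *Il1r1* (−0.34) and *Il6ra* (−0.24). In the exact permutation test *Junb*, *Socs3* and *Il1r1* were below 0.05 (*p*=0.0122, 0.0251 and 0.0385), whereas *Stat3* and *Il6ra* were not (*p*=0.0676 and 0.0775). *Il6st*, the most abundant, had a log2 fold change of −0.02. Of 12 hepatocyte transcription factors, *Foxa3* was lower (−0.43, unadjusted edgeR *p*=0.027, exact permutation *p*=0.0670) and *Hnf4a*, the most abundant, was at −0.07. Of 16 glucocorticoid-related genes, which bear on *Serpina6*, 0 passed, and the most abundant, *Pck1*, was at 0.0014. No gene in these lists passed after adjustment over all genes.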

How the data were processed

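Bulk RNA sequencing of liver was analysed for 14 mice, 7 per group as given in the labels, and all 14 count columns were used. Per the labels and the study's methods, the authors trimmed adapters, aligned reads with HISAT2 to GRCm38 (Ensembl 102) and deposited raw counts of uniquely mapped reads per gene. The libraries were strand-specific, and the counting tool is not given in the sources used here. Counts were compared with edgeR 4.0.16 (TMM, filterByExpr, robust quasi-likelihood fit, Benjamini–Hochberg over 12653 genes) in R 4.3.3. The SE is the log2 fold change divided by the square root of the F statistic, and intervals use the fitted degrees of freedom. Levels are TMM-normalised CPM. Correlations used log2 CPM (prior count 0.5) and 100000 permutations within groups. Sequences came from GENCODE M21 and RefSeq, and copies were aligned with MAFFT 7.526. In simulated counts, with a log2 change of 1 given to 200 genes, edgeR recovered 161 and called 12 unchanged genes. DESeq2 1.42.0, limma 3.58.1 voom, other scalings, filters and leaving out each mouse were alternatives.

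The genes and all lists were chosen with earlier results of these data known. Named genes were the 10 serpins, the most abundant gene of each list and those with an unadjusted *p* below 0.05, and the 2 genes most alike to each serpin, some of them only within counts. *Elane*, *Alb* and *Serpina3f* were named after their values were seen. Each mouse is 1 library. Total counts of 15197498 to 21060376 make counting error small for all but *Serpina3g*. Intervals are for the difference between the group means and take the spread between mice into account. No 2 libraries of a group agreed within counting noise.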

Additional observations from a re-analysis of the deposited data

How the results depend on the processing

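No paired analysis was possible because the groups share no replicate number. The number of serpin genes with an unadjusted *p* below 0.05 was 0 in edgeR and stayed 0 with RLE or upper quartile scaling, a filter at a mean of 10 counts and limma voom. It was 1 without a filter (*Serpina1c*), 1 without the robust fit (*Serpina3n*), 2 in both DESeq2 fits (*Serpina1c* and *Serpina3n*), and 0 to 2 when each mouse was left out in turn. Over all genes the count of 482 became 1336 without a filter, where 22535 genes were tested, and 386 to 627 with a mouse left out, and 0 genes passed after adjustment in any of these fits. In 80 refits under 8 other settings the sign turned 1 time, for *Serpina3g* with limma voom (−0.062). In 140 refits with a mouse left out it turned 7 times, and the ranges of log2 fold change were −0.0042 to 0.081 for *Serpina1b*, −0.032 to 0.84 for *Serpina1e*, −0.29 to 0.50 for *Serpina3g*, −0.035 to 0.10 for *Serpina3m* and −0.14 to 0.016 for *Serpina6*. *Serpina1e* turned without G2 and *Serpina3g* without G8. The range was −0.37 to −0.15 for *Serpina3n* and 0.15 to 0.26 for *Serpina1c*. The cause of these changes was not tested beyond the mouse left out. The mean shares of *Serpina1a*, *Serpina1b*, *Serpina1c* and *Serpina1d* in the *Serpina1* reads became 12.7%, 28.0%, 29.3% and 25.4% per kilobase, and 12.5%, 21.04%, 40.5% and 22.6% per window held by no other gene, a scale that was added once the data had been seen. The number of pairs with an adjusted *p* below 0.05 was 9, 9 without centring on the group means, 6 without the 2 mice farthest from the median, and 7 to 12 with each mouse left out in turn, a check added later. Of the 9 pairs, 7 passed in all 14 of those refits, *Serpina1c* with *Serpina1e* in 12 (not without G3 or G10) and *Serpina1a* with *Serpina1c* in 8 (not without G1, G3, G4, G5, G9 or G10). The exact test put 0 of the 10 genes below 0.05 with each of 3 scalings.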
